A study of Homo sapiens with 16 samples.

Results

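The genes described here encode the nuclear subunits of mitochondrial complex I and the NDUFAF assembly factors, chosen by their symbols alone: NDUFA, NDUFAB, NDUFAF, NDUFB, NDUFC, NDUFS or NDUFV followed by a number. This rule took 46 of the 17738 genes in the table, and all 46 passed the filter for testing. They were measured by RNA sequencing in 16 libraries of H1 cells, a long-established line of human embryonic stem cells that the labels give as wild type. Cells had been maintained in E8 medium and were then kept for 24 h in E7 medium, which is E8 without TGFb. The 8 groups of 2 libraries were E7 alone, E7 with TGFb at 1.74 ng/mL, E7 with Activin A at 100 ng/mL and E7 with NODAL at 100 ng/mL, each without and with 2-deoxyglucose (2DG) at 3 mM. 2DG is a glucose analogue that is phosphorylated after uptake and then blocks early glycolysis, and the added proteins are ligands that signal through SMAD2 and SMAD3. All cells are from a single line, and the labels do not say that replicates were separate cultures, so the p-values measure only the spread between these samples.

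Complex I is the NADH dehydrogenase of the respiratory chain. It passes electrons from NADH to ubiquinone through a flavin and a chain of iron-sulphur clusters in the arm that reaches into the matrix, and pumps protons through the arm in the inner membrane. The catalytic core is made of 7 nuclear and 7 mitochondrially encoded subunits, around which accessory subunits fold and stabilise the complex, and assembly factors build it without staying in it. Human pluripotent stem cells are known for high glycolytic flux and for mitochondria that remain capable of respiration. By role, the genes were 7 core subunits, 9 accessory subunits of the matrix arm, 9 of the proximal membrane arm, 12 of the distal membrane arm, 8 assembly factors, and NDUFA4, which was first counted in complex I and is now placed in complex IV.

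Values are read counts that the authors divided by 1 size factor per library, called normalised reads below, from 14600479 to 17630329 reads per library. The 46 genes held between 0.219 and 0.348% of the reads, and reads of the mitochondrial genome held 5.46 to 6.69%. The 10 stem cell markers, POU5F1, SOX2 and NANOG among them, were all in the table, with sums of 137491 to 177513 normalised reads per library. Of 8 fibroblast markers 5 were listed, with sums of 2857 to 5285 in all 16 libraries, whereas DCN, LUM, COL3A1 and the 3 blood markers were not in the table. The 4 listed mesendoderm markers summed to 185 and 202 in E7, 68.3 and 55.5 in E7+2DG, 1715 and 1575 with Activin A, and 551 and 584 with NODAL. In bulk RNA, fewer cells of a type and less RNA per cell cannot be told apart.

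Replicates of some groups differed across the complex I genes, and this bears on every comparison below. In Activin A, replicate 2 was below replicate 1 for 42 of the 46, with a median log2 difference of -0.64, and in E7 replicate 2 was above replicate 1 for 41, with a median of 0.29. The same difference in NODAL had a median of -0.19, with 40 genes lower in replicate 2. In the other groups the median lay between -0.26 for Activin A with 2DG and 0.10 for E7+2DG, whereas over all genes the median was within 0.01 of 0 in all 8 groups. Replicate 2 of E7 was the highest of all 16 libraries for 22 of the 46 genes, and replicate 1 of Activin A for 18. The replicate difference moved with transcript length over all genes most in these groups (Spearman's rho -0.39 in E7 and 0.54 in Activin A). It was 0.26 in NODAL, -0.23 in E7+2DG, 0.21 in Activin A with 2DG and from -0.05 to 0.05 in the other 3 groups. Complex I transcripts are short, with a median of 1314.5 bases against 3089.5 for all genes tested with a length. The heat map of values by library shows both columns.

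**Figure D1:**
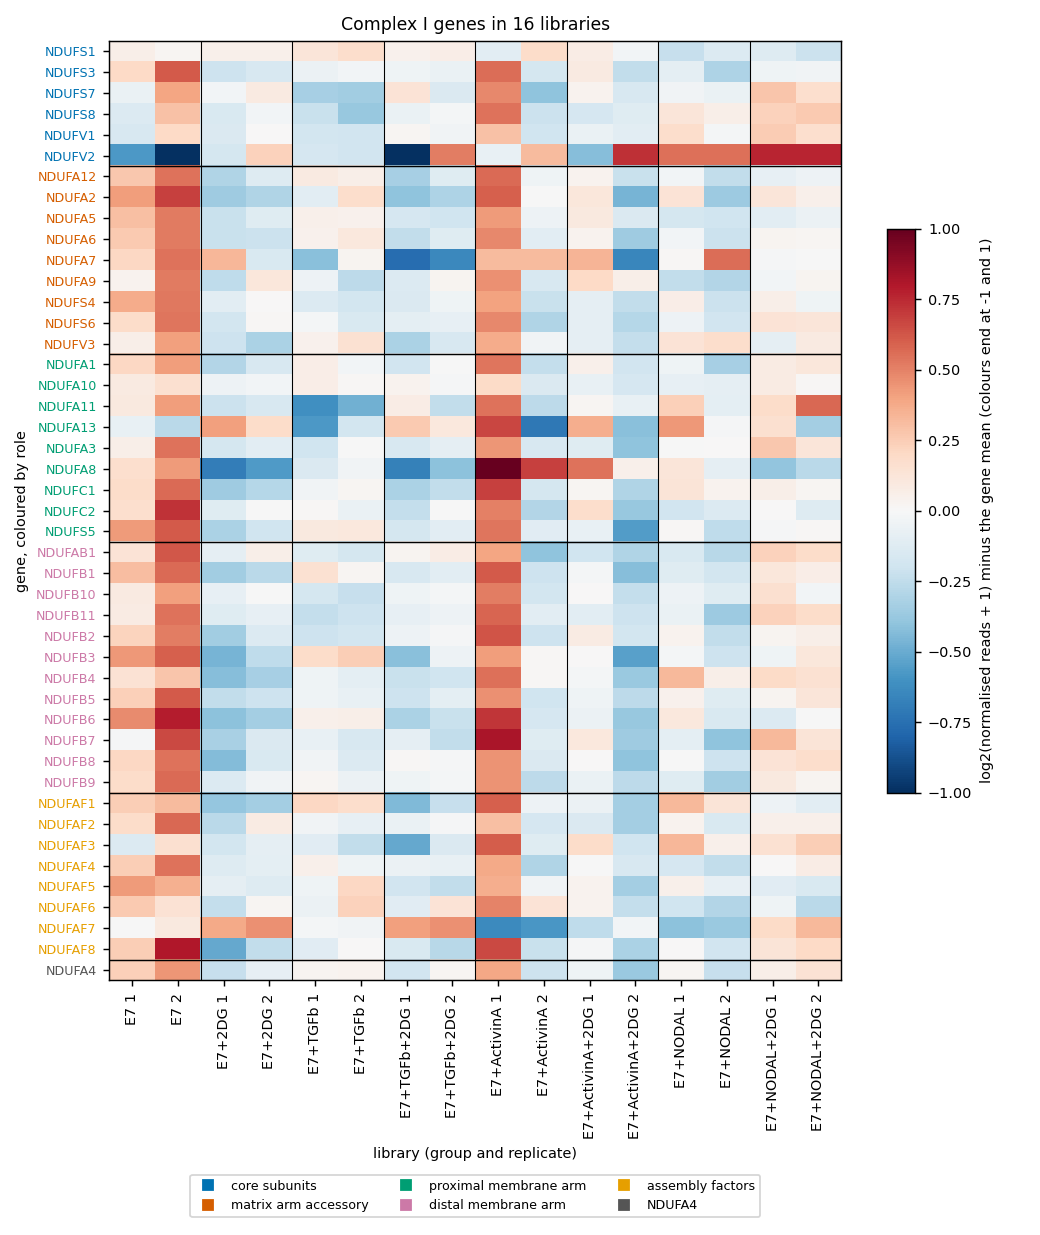
Each row is 1 of 45 of the 46 genes, grouped by role, and each column 1 of the 16 libraries. Colour gives log2(normalised reads + 1) less the gene's mean over the libraries, with colours ending at -1 and 1. E7 replicate 2 and Activin A replicate 1 are red in most rows, and NDUFAF7 runs against the other rows.

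Levels differed widely between complex I genes. Per kb of the longest transcript in the GENCODE basic set, NDUFS5, a small accessory subunit on the intermembrane space side, was highest with a median of 5948 normalised reads per kb (range 4155 to 9362). NDUFS5 was the only gene whose lowest library lay above the highest library of each other gene, of which NDUFA8 reached 2833. It has 6 annotated pseudogenes, and how the counting treated reads shared with them is not given in the sources used here. Next in order were NDUFA4 at 1832, NDUFAB1, the mitochondrial acyl carrier protein, at 1731, NDUFS6 at 1326, NDUFA12 at 1321 and NDUFB4 at 1320, all with overlapping ranges. At the other end were NDUFA9 at 28.6 per kb, NDUFA13 at 16.9, NDUFV2 at 13.5 and NDUFA7 at 12.4. The place of NDUFA9 rests on the length used, 8363 bases. Its median of 240 normalised reads was above the 161 of NDUFB8, whose length was 713 bases.

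NDUFV2, NDUFA13 and NDUFA7 had few reads: medians of 12.7, 16.7 and 7.44 normalised reads. NDUFV2 is a core subunit that carries an iron-sulphur cluster. Between 21.0 and 32.3% of the exon bases of these 3 genes are shared with another annotated gene on the same strand. Whether their counts were split with those genes was not tested. The changes of NDUFV2, NDUFA13 and NDUFA7 carry large errors. The annotated pseudogene NDUFV2P1 had at least 38.2 normalised reads in each library, against at most 20.9 for NDUFV2. How reads shared between NDUFV2 and NDUFV2P1 were counted is not given in the sources used here. Across the 16 libraries the smallest ratio of highest to lowest value was 1.29 for NDUFA10, followed by 1.33 for NDUFS1 and 1.41 for NDUFV1, and the largest among well-covered genes was 3.94 for NDUFA8.

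**Figure D2:**
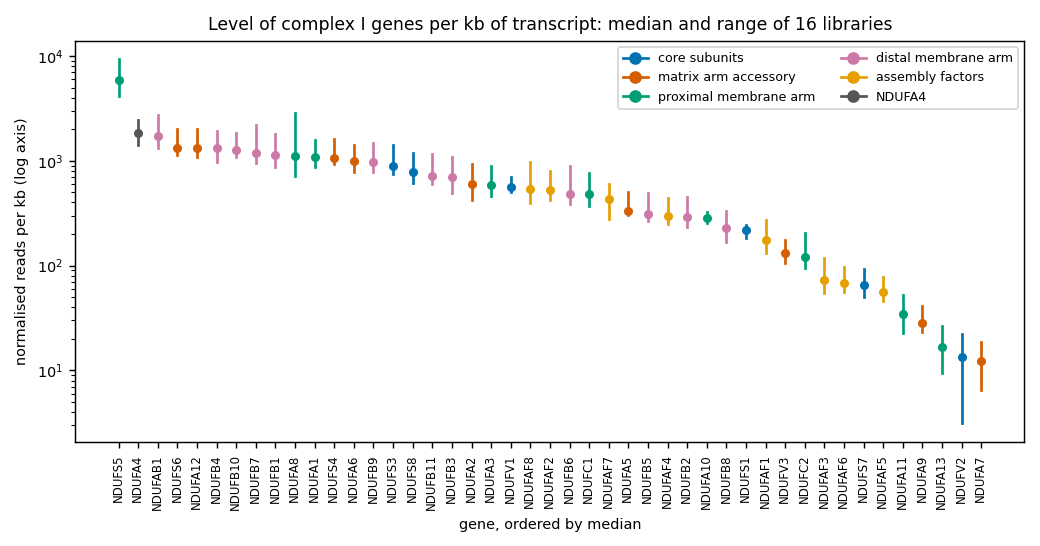
Level of 45 of the 46 genes in normalised reads per kb of transcript, on a log axis, in order of the median. Points are medians and lines the range over 16 libraries, coloured by role. NDUFS5 stands above the others at 5948 and NDUFA13, NDUFV2 and NDUFA7 lie lowest, between 12.4 and 16.9.

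In E7 without added ligand, 2DG lowered 24 of the 46 complex I genes and raised 1, at an adjusted p under 0.05 over all genes tested with limma. The largest falls were in NDUFB6, NDUFA8, NDUFAF8, NDUFA2, NDUFB3 and NDUFS5, to between 0.50 and 0.58 times the level without 2DG. Over all 16714 genes, 14.8% were called lower and 14.6% higher, with a median log2 fold change of 0.00, against -0.50 for the 46. In 36 of them both 2DG libraries were below both E7 libraries, and in 3 both were above, against 34.8 and 34.1% of all genes. On recovered reads edgeR called 24 of the 46 and DESeq2 27, 1 of them higher in each, against 13.7 and 15.2% of all genes called lower.

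NDUFB6, a single-pass subunit of the distal membrane arm, had 972 and 1207 normalised reads in E7 and 528 and 552 with 2DG (log2 fold change -1.003, SE 0.21, adjusted p = 0.0045). NDUFA8, which lies on the intermembrane space side of the proximal arm, had 1100 and 1319 in E7 against 606 and 660 with 2DG (log2 fold change -0.93, SE 0.19, adjusted p = 0.0037). In both genes each 2DG library was well below each E7 library. NDUFB3, another distal arm subunit, had 725 and 812 in E7 against 388 and 449 (log2 fold change -0.88, SE 0.18, adjusted p = 0.0041). NDUFS5 had 4516 and 5130 against 2696 and 2923 (log2 fold change -0.78, SE 0.18, adjusted p = 0.0075), which made it the largest loss in reads.

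NDUFA2, an accessory subunit of the matrix arm, had 627 and 755 in E7 against 366 and 382 with 2DG (log2 fold change -0.88, SE 0.22, adjusted p = 0.0099). NDUFAF8, the partner protein of the assembly factor NDUFAF5, had 410 and 600 against 242 and 290 (log2 fold change -0.90, SE 0.24, adjusted p = 0.013). For NDUFAF8 the gap between the E7 libraries was larger than the gap from the lower of them to 2DG, whereas the opposite held for NDUFA2.

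The core subunits had fewer falls in E7 and a median nearer 0 than the accessory ones, a difference that was not tested. Of 7 core genes 2 fell, with a median log2 fold change of -0.13, beside 14.8% of all genes called lower. NDUFS1, the largest iron-sulphur subunit, had 2625 and 2552 in E7 and 2619 and 2609 with 2DG (log2 fold change 0.01, SE 0.10, adjusted p = 0.93), so its groups overlapped. Of its exon bases, 11.7% are shared with genes on the other strand, EEF1B2 among them. NDUFV1, which binds the flavin and NADH, gave -0.09 (adjusted p = 0.66), and NDUFS8, an iron-sulphur subunit, gave -0.17 (adjusted p = 0.53).

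Among the accessory subunits, 6 of 9 of the matrix arm fell (median log2 fold change -0.50). In the proximal membrane arm 4 of 9 fell (-0.51) and in the distal membrane arm 7 of 12 (-0.60). Of all genes 14.8% were called lower. NDUFS4, which helps hold the NADH-binding module in place, fell by 0.50 on the log2 scale (SE 0.16, adjusted p = 0.035). NDUFB8, whose protein is unstable without the assembled complex, fell from 188 and 236 to 120 and 146 (log2 fold change -0.67, SE 0.20, adjusted p = 0.024). NDUFB8 shares 33.8% of its exon bases with AL133352.1 on the same strand and 16.3% with HIF1AN on the other. NDUFA9, NDUFA13 and NDUFAB1 did not pass, at log2 fold changes of -0.34, 0.47 and -0.40 and adjusted p of 0.21, 0.43 and 0.15. NDUFA4 fell by 0.50 (SE 0.17, adjusted p = 0.039).

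Assembly factors gave 4 falls and the 1 rise of the 46 among their 8 genes, with a median log2 fold change of -0.49. Of all genes 14.8% were called lower and 14.6% higher. NDUFAF1, a factor for the membrane arm, went from 314 and 329 to 202 and 209 normalised reads (log2 fold change -0.64, SE 0.18, adjusted p = 0.016). NDUFAF4, which works with NDUFAF3 on the ubiquinone module, fell by 0.51 (SE 0.17, adjusted p = 0.035). NDUFAF7, the gene that rose, is described on its own below.

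The count of falls in E7 depended on single libraries. Without E7 replicate 2, the library highest for most complex I genes, 3 calls were left (NDUFB3 and NDUFA8 lower and NDUFAF7 higher), with a median log2 fold change of -0.34 and 4.64% of all genes called lower. Without E7+2DG replicate 1, 4 calls were left (NDUFB3, NDUFB6 and NDUFA8 lower and NDUFAF7 higher), at a median of -0.46 and beside 6.86% of all genes lower. Without E7+2DG replicate 2, 11 were left, at a median of -0.55 and beside 8.62%. Without the 4 Activin A libraries, which enter only the shared estimate of spread, 34 were called, 33 of them lower, beside 22.4% of all genes lower. The log2 fold change also rose with transcript length, with a Spearman's rho of 0.35 over all genes and 0.36 over the 46. When that trend was removed in each library, 22 fell, 21 of them among the 24, with a median of -0.33 and 18.9% of all genes lower. The sum of the mesendoderm markers moved in the same comparison. Of the 10 stem cell markers 3 fell with 2DG in E7, namely L1TD1 (-0.55, adjusted p = 0.0020), NANOG (-0.47, 0.0062) and POU5F1 (-0.46, 0.037), whereas SALL4 rose (0.54, 0.00095). The call of NANOG was lost without E7 replicate 2 (0.068) or E7+2DG replicate 1 (0.057), and that of POU5F1 in 11 of 30 alternatives. The part of either marker list in the result was not tested.

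**Figure D3:**
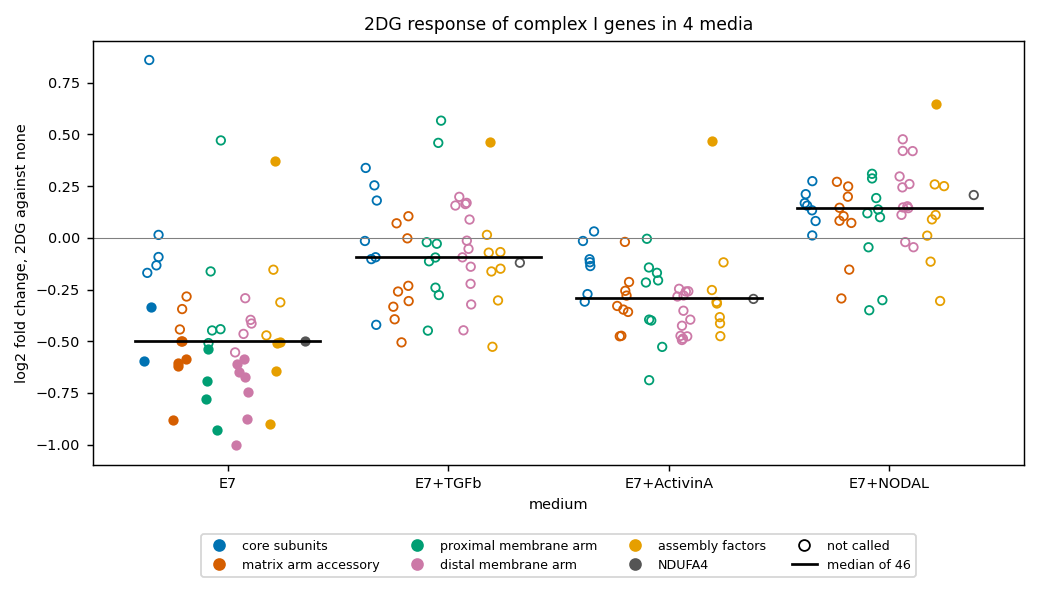
Log2 fold change with 2DG of each of the 46 genes in 4 media, coloured by role. Filled points passed an adjusted p of 0.05, open points did not, and black lines are the medians of the 46. The median is -0.50 in E7, -0.09 with TGFb, -0.29 with Activin A and 0.14 with NODAL, and 1 assembly factor, NDUFAF7, is filled above 0 in all 4.

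To show what lies upstream of genes that fell with 2DG in E7, exon-free stretches before the annotated start are given for 4 of them, from RefSeq on GRCh38.p14, 5′ to 3′ on the gene's strand. The table of promoters matched 39 of the 46 genes. NDUFB6 (chr9:32552999-32573184, minus strand) and NDUFA8 (chr9:122144058-122159819, minus strand) had the largest falls, and NDUFB4 (chr3:120596309-120602500, plus strand) and NDUFA12 (chr12:94897055-95003770, minus strand) hold NRF1 matches. All 4 were chosen after the values were seen. Capitals mark a match to 1 of the 7 motifs searched on both strands: GGGCGG of SP1 in NDUFA8, the NRF1 motif in NDUFB4 and NDUFA12, and CCAAT in NDUFA12. In NDUFB4 the first NRF1 match reads the same on both strands.
NDUFB6 at chr9:32573185-32573409, minus strand: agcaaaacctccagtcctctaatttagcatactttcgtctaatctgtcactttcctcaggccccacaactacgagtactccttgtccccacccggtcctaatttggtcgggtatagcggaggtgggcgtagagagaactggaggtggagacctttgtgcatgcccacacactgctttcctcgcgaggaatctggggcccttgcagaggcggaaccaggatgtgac
NDUFA8 at chr9:122159820-122159907, minus strand: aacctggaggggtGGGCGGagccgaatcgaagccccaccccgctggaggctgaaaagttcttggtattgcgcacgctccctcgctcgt
NDUFB4 at chr3:120596086-120596308, plus strand: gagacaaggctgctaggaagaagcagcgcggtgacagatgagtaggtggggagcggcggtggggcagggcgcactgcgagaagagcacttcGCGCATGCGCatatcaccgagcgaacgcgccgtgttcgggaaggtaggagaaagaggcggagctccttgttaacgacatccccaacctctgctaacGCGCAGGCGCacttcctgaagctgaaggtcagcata
NDUFA12 at chr12:95003771-95003947, minus strand: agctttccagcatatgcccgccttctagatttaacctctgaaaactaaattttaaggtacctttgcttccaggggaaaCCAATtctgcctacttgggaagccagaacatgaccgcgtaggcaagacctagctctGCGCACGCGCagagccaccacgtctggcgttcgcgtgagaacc

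The NDUFB4 stretch holds 2 NRF1 matches, and the NDUFB6 stretch holds none of the 7 motifs. NRF1 is a transcription factor known for respiratory chain genes. In the 250 bases before the start, its motif was in 5 of the 39 complex I promoters (12.8%) and in 5.07% of all 35116 promoters. Besides NDUFB4 and NDUFA12, these were NDUFA9, NDUFA11 and NDUFA3. None of the latter was called with 2DG in E7 (log2 fold changes -0.34, -0.45 and -0.44). Whether the NRF1 motif goes with a fall was not tested. The motif of ETS factors such as GABP, CCGGAAG, was in 7 (17.9%, against 8.52% of all), GGGCGG in 24 (61.5%, against 42.6%) and CCAAT in 11 (28.2%, against 32.0%). TGATGNAA, taken for ATF4, was in 1 (2.56%, against 3.14%). AAGATGGCG of YY1 and TCAAGGTCA of ESRRA were in 0 of the 39, against 0.652% and 0.319% of all promoters. The 35116 promoters were not limited to the 17738 genes measured here. Whether the shares differ from those of other genes expressed in these cells was not tested. A match is a run of letters and no evidence of binding.

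NDUFB4 went from 2079 and 2278 normalised reads in E7 to 1401 and 1496 with 2DG (log2 fold change -0.59, adjusted p = 0.013), and NDUFA12, an accessory subunit of the matrix arm, from 1045 and 1263 to 704 and 791 (log2 fold change -0.62, adjusted p = 0.016). Both fell with no overlap between the groups. NDUFB4 has 12 annotated pseudogenes, and how reads shared with them were counted is not stated.

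With a ligand in the medium, 2DG changed 1 complex I gene in each of 3 comparisons, and this was NDUFAF7 each time. With TGFb 1 gene rose and 0 fell, against 5.47% and 4.37% of all genes, and the median of the 46 was -0.09. With Activin A 1 rose and 0 fell, against 1.48% and 0.221%, and the median was -0.29. With NODAL 1 rose and 0 fell, against 3.11% and 2.76%, and the median was 0.14, with 37 genes above 0. At an unadjusted p under 0.05 there were 4 lower genes with TGFb and 10 with Activin A, against 12.1 and 9.41% of all genes. By edgeR 1 gene was called in each. Of all 16714 genes, edgeR called 952 higher and 661 lower with TGFb. It called 265 higher and 31 lower with Activin A, and 546 higher and 496 lower with NODAL. DESeq2 called 2 with Activin A, of which 1 was lower, against 1.09% of all genes.

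The count with Activin A depended on its replicates. Without replicate 2 of Activin A, 39 of the 46 were called for 2DG, 38 of them lower with a median log2 fold change of -0.62, beside 14.2% of all genes lower. Without replicate 1, the median was 0.01.

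Of the 46 genes, 8 had a log2 fold change below 0 in all 4 media, 22 in 3 of them and 1 in none. Of the 46, 0 were called lower in 2 or more media, beside 4.06% of all genes. NDUFB6 had values of -1.003 in E7, -0.32 with TGFb, -0.49 with Activin A and -0.05 with NODAL. NDUFAF1 kept closer to its E7 value, with -0.64, -0.53, -0.48 and -0.31. NDUFS1 had the narrowest span of the genes named here, from -0.09 with TGFb to 0.01 in E7 and with NODAL. The 4 comparisons share no libraries.

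Between media, the difference in 2DG response from E7 was above 0 for 43 of the 46 genes with TGFb (median 0.43), 38 with Activin A (0.20) and 42 with NODAL (0.64). Because the 3 differences share the E7 and E7+2DG libraries, they are not independent. By limma 0 of the 46 passed in any of them, against 0.987% of all genes called higher and 0.885% lower for NODAL, 0.0419% higher and 0% lower for Activin A and 0% for TGFb. At an unadjusted p under 0.05 there were 8, 0 and 28 genes with TGFb, Activin A and NODAL, all higher, against 5.67% of all genes for TGFb and 13.2% for NODAL. DESeq2 called 18 for NODAL, beside 8.02% of all genes higher, and 0 for the others, and edgeR called 0 in all 3. Without the 4 Activin A libraries the NODAL difference gave 32 calls, all higher, beside 13.9% of all genes higher. For NODAL, NDUFB8 had a difference of 0.93 (adjusted p = 0.073), NDUFAB1 of 0.82 (0.095) and NDUFAF4 of 0.76 (0.075), whereas NDUFS1 had one of 0.00 (0.99).

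NDUFAF7 (chr2:37231631-37253403, plus strand, GRCh38) encodes a mitochondrial methyltransferase that acts early in assembly. It had 940 and 1013 normalised reads in E7 and 1230 and 1297 with 2DG, 930 and 921 with TGFb and 1256 and 1296 with TGFb and 2DG. With Activin A it had 608 and 632, and 792 and 927 once 2DG was added, and with NODAL 712 and 731, and 1080 and 1185 with 2DG. In each medium both 2DG libraries were above both libraries without it, and the values with Activin A or NODAL alone were the lowest of the 16.

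The log2 fold change of NDUFAF7 with 2DG was 0.37 in E7 (adjusted p = 0.012), 0.46 with TGFb (0.0098), 0.47 with Activin A (0.031) and 0.65 with NODAL (0.0020), each with SE 0.10. It was the 1 gene of the 46 called higher in 4 of 4 media, beside 0.724% of all genes. The difference in response from E7 did not pass with TGFb (0.09, adjusted p = 0.77), Activin A (0.09, 0.85) or NODAL (0.28, 0.22). Without 2DG, it was lower with Activin A (log2 fold change -0.65, adjusted p = 0.00068) and NODAL (-0.44, 0.0081) and not called with TGFb (-0.08, 0.66).

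The call of NDUFAF7 for 2DG with NODAL held under all 30 alternatives tried. In E7 it ended when replicate 1 of E7 (adjusted p = 0.072) or replicate 2 of E7+2DG (0.080) was left out, and with TGFb it was lost without any 1 of the 4 libraries compared (0.069 to 0.090). With Activin A it was lost in 13 of 28 alternatives. Of its exon bases, 9.53% are shared with CEBPZ and PRKD3 on the other strand, and the strand setting of the counting is not given in the sources used here. CEBPZ, looked at after these values were seen, was lower with Activin A (-0.88, adjusted p = 0.00039) and NODAL (-0.83, 0.00094). With 2DG its log2 fold change was 0.05 in E7 (adjusted p = 0.76), 0.20 with TGFb (0.35), 0.43 with Activin A (0.091) and 0.45 with NODAL (0.044). PRKD3 was called in none of these comparisons, and the part of shared reads was not tested.

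**Figure D4:**
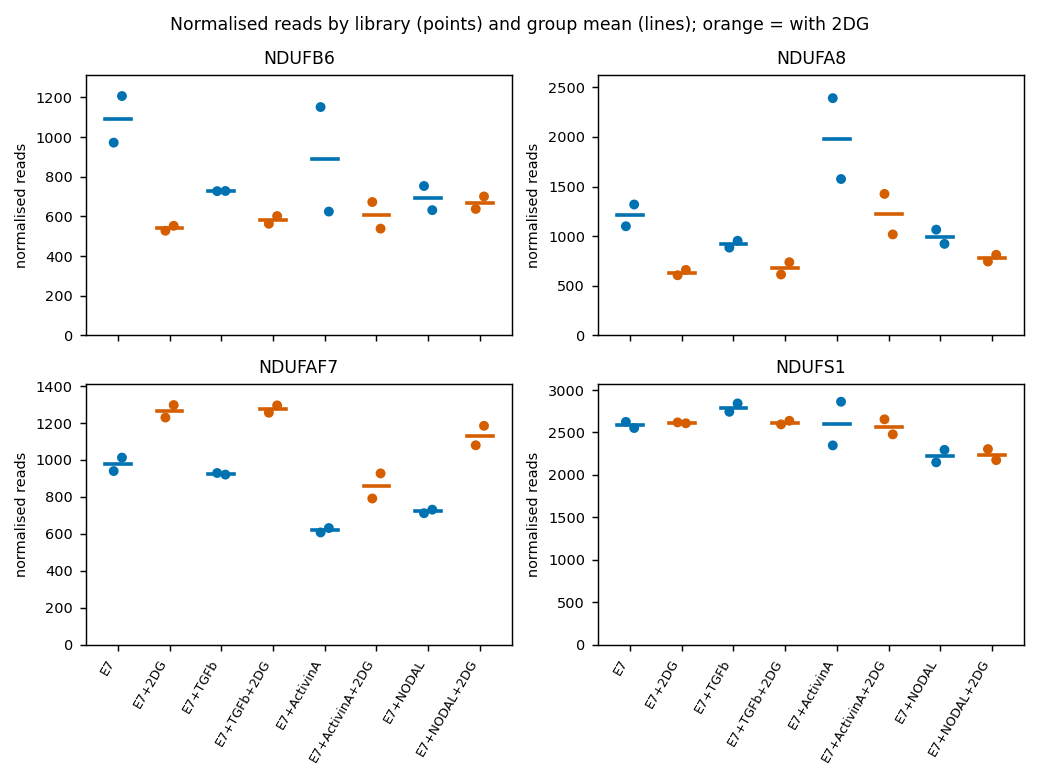
Normalised reads of NDUFB6, NDUFA8, NDUFAF7 and NDUFS1, chosen after the values were seen, in 8 groups. Points are libraries, lines are means of 2, and orange marks 2DG. NDUFAF7 is higher with 2DG in each medium, NDUFA8 is highest with Activin A at 2391 and 1576, and NDUFS1 stays between 2149 and 2862.

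NDUFA8 was the 1 complex I gene higher with Activin A. It had 2391 and 1576 normalised reads with Activin A against 1100 and 1319 in E7 (log2 fold change 0.69, SE 0.19, adjusted p = 0.035), and 1426 and 1018 against 606 and 660 when both groups had 2DG (log2 fold change 0.93, SE 0.19, adjusted p = 0.0071). In both comparisons each Activin A library was above each library without it. Without 2DG the call was lost in 8 of 28 alternatives, among them without E7 replicate 1, E7 replicate 2 or Activin A replicate 1, and under 2DG in 2 of 28. With TGFb it had 885 and 954, and with NODAL 1066 and 923, neither called.

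Ligands were also compared with E7 for all the genes. These comparisons and that of 2DG in E7 share the E7 libraries, and each is given by itself. NODAL lowered 14 of the 46 and raised 0, where 10.9% of all genes were called lower and 10.6% higher, and the median of the 46 was -0.46. Activin A lowered 1, NDUFAF7, and raised 1, NDUFA8, where 4.74% and 5.28% of all genes were called, with a median of -0.16. TGFb changed 0 of the 46 and 0% of all genes, with a median of -0.39 and 44 genes below 0. For TGFb 21 of the 46 had an unadjusted p under 0.05, all lower, against 10.7% of all genes, and edgeR called 0 and DESeq2 1.

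For NODAL without 2DG, NDUFA2 went from 627 and 755 in E7 to 518 and 366 (log2 fold change -0.66, SE 0.22, adjusted p = 0.046). NDUFB6 went from 972 and 1207 to 753 and 631 (log2 fold change -0.65, SE 0.21, adjusted p = 0.045). NDUFS5 went from 4516 and 5130 to 3392 and 2817 (log2 fold change -0.64, SE 0.18, adjusted p = 0.026). In the 3 genes the groups did not overlap. The calls were lost in 13 of 30 alternatives for NDUFA2, 15 for NDUFB6 and 5 for NDUFS5. The other large falls were in NDUFB3 (-0.63, adjusted p = 0.028), NDUFS3, a core subunit near the ubiquinone site (-0.62, 0.037), and NDUFB9 (-0.61, 0.029). Their calls were lost in 5, 13 and 5 of 30 alternatives. NDUFS3 shares 19.6% of its exon bases with PTPMT1 on the same strand. NDUFB3 shares 19.8% and NDUFB9 21.0% with genes on the other strand.

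By role, NODAL lowered 2 of 7 core genes, 5 of 9 of the matrix arm and 1 of 9 of the proximal membrane arm. It lowered 4 of 12 of the distal membrane arm and 2 of 8 assembly factors. Of all genes 10.9% were called lower, near the share in the proximal membrane arm. The roles were not tested against each other. NDUFS4 fell by 0.52 (adjusted p = 0.037), NDUFAB1 by 0.59 (0.048) and NDUFAF4 by 0.60 (0.022). Their calls were lost in 12, 16 and 3 of 30 alternatives. NDUFS1 (-0.22, adjusted p = 0.11) and NDUFA4 (-0.45, 0.072) did not pass.

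The NODAL count ended without E7 replicate 2 or without NODAL replicate 2, when 0 of the 46 were called, at medians of -0.31 and -0.37, and 2.27 and 2.48% of all genes were lower. It was 3 without NODAL replicate 1 (4.67% of all genes), 4 when libraries were scaled to the same total (5.48%) and 8 with quantile normalisation (9.17%). Without the 4 Activin A libraries it was 34, beside 19.5% of all genes lower, and with the length trend removed 22, beside 16.6%, with all 14 among them. For TGFb, 34 genes were called lower without the 4 Activin A libraries, beside 12.4% of all genes. Activin A without its replicate 1 gave 27 lower, beside 13.6%. Stem cell markers moved in the NODAL comparison as well: 5 of 10 fell, led by L1TD1 (-0.61, adjusted p = 0.0017), ZFP42 (-0.43, 0.0028) and LIN28A (-0.40, 0.010), and 0 rose. TDGF1 (-0.33, 0.038) and SOX2 (-0.25, 0.047) also fell, with calls lost in 13 and 18 of 30 alternatives, and that of LIN28A was lost in 4. With Activin A 4 of 10 fell and 0 rose. The part of these markers in the results was not tested.

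Under 2DG, where the ligand groups are compared with E7+2DG, TGFb changed 0 of the 46, with 0% of all genes called either way and no gene of the 46 at an unadjusted p under 0.05. Activin A raised NDUFA8 and lowered NDUFAF7 (-0.56, adjusted p = 0.0022), where 4.27% of all genes were higher and 3.25% lower. NODAL changed 0, where 0.425% of all genes were higher and 0.209% lower, at a median of 0.26 with 40 genes above 0. In 35 of the 46 both NODAL libraries were above both E7+2DG libraries, against 30.3% of all genes, and 4 were higher at an unadjusted p under 0.05, against 8.08%. edgeR and DESeq2 called 0 for TGFb and NODAL.

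**Figure D5:**
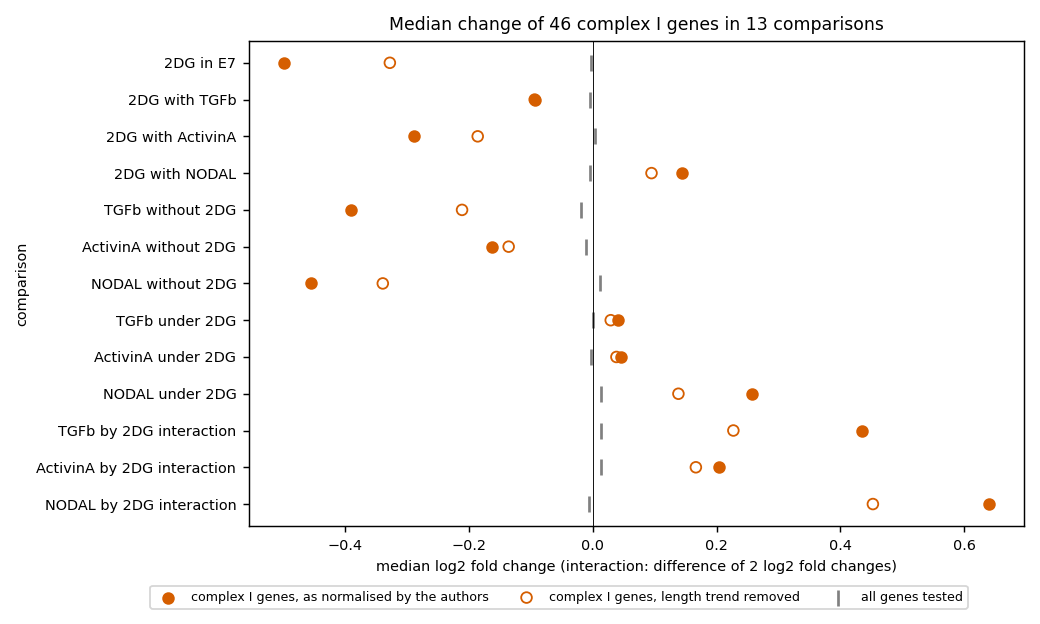
Median log2 fold change of the 46 genes in each of 13 comparisons as normalised by the authors (filled) and with the length trend removed (open), with the median of all genes tested (grey bars). The median moves from -0.50 to -0.33 for 2DG in E7 and from 0.64 to 0.45 for the NODAL difference, and keeps its sign in each comparison.

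The other genes of complex I and its surroundings were counted from lists. For these counts, the shares of all genes called lower were 14.8% for 2DG in E7 and 10.9% for NODAL. Those called higher were 14.6 and 10.6%. Of the 7 subunits encoded in the mitochondrial genome, 2 were called higher with 2DG in E7 and 0 lower. MT-ND3 (-0.40, adjusted p = 0.057) and MT-ND6 (-0.15, 0.46) were below 0 and not called. MT-ND1 (0.27, 0.10), MT-ND2 (0.06, 0.74) and MT-ND4 (0.17, 0.25) were above 0 and not called. MT-ND5, a proton-pumping subunit, had 43296 and 30059 normalised reads in E7 and 52518 and 51802 with 2DG (log2 fold change 0.53, SE 0.14, adjusted p = 0.012), and MT-ND4L rose by 0.63 (SE 0.19, adjusted p = 0.024). E7 replicate 2 was the lower of the E7 libraries for both. Each of these 2 calls was lost in 3 of 30 alternatives. With NODAL, 3 of the 7 were called higher and 0 lower. MT-ND4L rose by 0.76 (adjusted p = 0.014), MT-ND5 by 0.63 (0.0075) and MT-ND4 by 0.44 (0.012). Their calls were lost in 3, 2 and 3 of 30 alternatives.

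Of 13 listed assembly factors with other names, 5 fell and 0 rose with 2DG in E7, with a median log2 fold change of -0.31. The largest falls were in TIMMDC1 (-0.69, adjusted p = 0.0029), TMEM126A (-0.67, 0.011) and TMEM261 (-0.65, 0.011), which take part in building the membrane arm. With NODAL 5 fell, led by TMEM126A (-0.82, adjusted p = 0.0059), TMEM126B (-0.71, 0.010) and TMEM261 (-0.71, 0.010). Among 13 regulators of mitochondrial genes, 4 fell and 2 rose with 2DG in E7. TFB1M (-0.77, adjusted p = 0.0024) and TFB2M (-0.49, 0.0057), related proteins of mitochondrial ribosomes and transcription, and GABPA (-0.43, 0.021) fell, whereas the coactivators PPARGC1B (0.96, 0.030) and PPRC1 (0.63, 0.0048) rose. With NODAL 3 of the 13 fell and 0 rose: TFB2M (-0.71, adjusted p = 0.0013), TFAM, which packages and transcribes mitochondrial DNA (-0.49, 0.0015), and GABPB1, the partner of GABPA (-0.34, 0.024), whose call was lost in 5 of 30 alternatives. With Activin A the coactivator PPARGC1A was higher by 1.73 (adjusted p = 0.00036) and TFAM lower (-0.29, 0.035), a call lost in 13 of 28 alternatives.

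Nuclear genes of the other respiratory complexes gave like counts for 2DG in E7. In complex II 3 of 4 fell, in complex III 7 of 9, in complex IV 6 of 10 and in complex V 11 of 15, with medians of -0.45, -0.53, -0.56 and -0.63. With NODAL 2, 2, 6 and 4 of these fell. No test here set complex I apart from these complexes.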

How the data were processed

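Libraries of polyadenylated RNA were sequenced in paired-end mode on a NextSeq 500. The deposited values are a signal that the authors made by dividing read counts per gene by 1 size factor per library. Each value was a whole multiple of its library's smallest step (100% of values, tolerance 1e-06), so whole reads were recovered. Per the submitters' processing notes, hg38 was the build and the tools included STAR, DESeq2 1.26.0, Trimmomatic 0.36 and featureCounts 1.5.3. What each did, the strand setting, the gene filter and the annotation release are not given in the sources used here. Every listed gene has a read in all 16 libraries.

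Log2(value + 1) was fitted with limma 3.58.1 (R 4.3.3, intensity trend) for genes with at least 10 in at least 2 libraries, in 1 model of 8 group means with 13 contrasts. P-values were two-sided, and a gene was called at a Benjamini-Hochberg adjusted p under 0.05 within its contrast. Fold changes are on the log2(value + 1) scale, which understates those of low genes. Errors are SEs of the fit, with n = 2 libraries per group. Lengths came from GENCODE 29 (GRCh38), which matched 97.6% of symbols, and promoters from RefSeq. The length trend was a lowess smooth with a span of 0.3. edgeR 4.0.16 and DESeq2 1.42.0 on recovered reads, other scalings, filters and pseudocounts, and leaving out libraries were alternatives. The scripts were tested on simulated data.

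Members and lists were chosen with earlier results of these data known. For each comparison the text names up to 6 called genes per direction with the largest log2 fold change and no overlap between groups, 12 fixed members, of which 1 is not reported here by name or in the plots by gene, and up to 3 called genes per other list. NDUFAF7 with NODAL, CEBPZ, PRKD3, NDUFB4, NDUFA12, NDUFA11, NDUFA3 and the stem cell markers given with values fall outside this rule and were chosen after their values were seen.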

Additional observations from a re-analysis of the deposited data

Results flagged for a closer look

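In 3 genes of the other lists the response to 2DG differed between E7 and NODAL medium by a test of the difference itself, beside 0.987% of all genes with a positive and 0.885% with a negative difference. TMEM126A, an assembly factor for the membrane arm, had a difference of 1.15 on the log2 scale (SE 0.24, adjusted p = 0.043, limma). It had 521 and 555 normalised reads in E7, 325 and 353 with 2DG, 341 and 272 with NODAL, and 424 and 427 with NODAL and 2DG. TFB2M, a mitochondrial transcription factor, had a difference of 0.79 (SE 0.16, adjusted p = 0.038), with 614 and 734 in E7, 486 and 469 with 2DG, 406 and 415 with NODAL, and 498 and 512 with both. L1TD1, a stem cell marker outside the naming rule and chosen after its values were seen, had a difference of 0.80 (SE 0.14, adjusted p = 0.038), with 24466 and 23342 in E7, 17765 and 15039 with 2DG, 15623 and 15797 with NODAL, and 18697 and 18647 with both. The falls with 2DG in E7 passed the test. In NODAL medium the log2 fold changes with 2DG were 0.48 for TMEM126A (adjusted p = 0.12), 0.30 for TFB2M (0.13) and 0.25 for L1TD1 (0.16), and none of these passed. The differences lost their call in 12 of 30 alternatives for TMEM126A, 12 for TFB2M and 13 for L1TD1. Of the 46 complex I genes, 0 passed the same test, with 28 at an unadjusted p under 0.05, 0 by edgeR and 18 by DESeq2. Groups of 2 are too small for a check of outlying libraries.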

How the results depend on the processing

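No called result turned its direction under any alternative. Counts of called complex I genes moved by over 1.5 times as follows, except for 2DG in E7, whose count did so only when 1 library was left out. Percentages are of all genes called in the same fit, in either direction. With only the libraries of a contrast, counts were 22 for 2DG with TGFb (37.9%), 0 with Activin A (0.0179%) and 12 with NODAL (29.1%), 18 for TGFb (14.6%), 0 for Activin A (0.574%) and 29 for NODAL (28.1%) without 2DG, 22 for NODAL under 2DG (20.2%), and 12 and 28 for the TGFb and NODAL differences (9.12 and 23.6%). Without the 4 Activin A libraries they were 12 and 6 for 2DG with TGFb and NODAL (24.6 and 20.3%), 34 for both TGFb and NODAL without 2DG (26.2 and 38.8%), 13 for NODAL under 2DG (17.7%), and 19 and 32 for the differences (14.7 and 28.7%). With the length trend removed they were 4, 2 and 3 for 2DG with TGFb, Activin A and NODAL (18.5, 5.1 and 13%), 22 for NODAL (29.9%), 1 for NODAL under 2DG (2.85%) and 8 for the NODAL difference (8.84%). Both changes together, an alternative chosen after seeing the data, gave 16 and 9 for 2DG with TGFb and NODAL (30.3 and 25%), 20 and 30 for TGFb and NODAL (18.8 and 41.5%), 6 for NODAL under 2DG (16.6%), and 8 and 28 for the differences (9.1 and 24%). For 2DG with NODAL the share of the 46 was below that of all genes in each of these 4 fits. For 2DG with TGFb it was 47.8, 26.1, 8.7 and 34.8% of the 46 in the order given, below that of all genes with the length trend removed and within 10 percentage points of it in the others. DESeq2 gave 2 for 2DG with Activin A (4.36%), 1 for TGFb (2.57%) and 18 for the NODAL difference (14.6%). NODAL gave 8 with quantile normalisation (18.9%) and 4 with the same total (21.5%). A mean of at least 50 gave 2 for the NODAL difference (7%), and a minimum change of 0.5 on the log2 scale gave 0 for 2DG with TGFb and with Activin A. A fit without 4 libraries or with only those of a contrast has its own estimate of spread; beyond that, the cause was not tested.

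With 1 library left out in turn, the remaining one assumed to vary like the other groups, counts ranged from 3 to 34 for 2DG in E7 (9.49 to 41.9%), 0 to 4 with TGFb (2.21 to 18.9%), 0 to 39 with Activin A (0.275 to 33.3%) and 1 to 3 with NODAL (0.981 to 14.8%). For the ligands without 2DG they ranged from 0 to 23 for TGFb (0 to 20%), 1 to 27 for Activin A (3.84 to 28.4%) and 0 to 32 for NODAL (4.96 to 34%). Under 2DG they were 0 to 0 (0 to 0%), 1 to 2 (3.73 to 11.7%) and 0 to 3 (0.0658 to 10.6%), and for the differences 0 to 7 (0 to 7.39%), 0 to 14 (0.012 to 12.8%) and 0 to 30 (0 to 23.3%).

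Replicate numbers did not pair the samples across all groups. Of 28 pairs of groups, 3 had a correlation of replicate differences above 0.1 (range -0.39 to 0.24). They were E7 with E7+2DG (0.13), Activin A with Activin A and 2DG (0.24), and Activin A with NODAL (0.18). With the replicate number as a block, the count of called complex I genes went from 25 to 24 for 2DG in E7. For NODAL without 2DG the count went from 14 to 12, and the other counts did not move. The shares of all genes called with the block are not given here. The interaction calls of TMEM126A, TFB2M and L1TD1 were lost with the block (adjusted p = 0.060, 0.058 and 0.058). Values near the minimum of 10 reads, as for NDUFV2, NDUFA13 and NDUFA7, rest on few reads. Why these genes were low was not tested.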
